A study of Mus musculus with 4 samples.

Results

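The genes described here are the ligands and receptors of the TNF superfamily, measured across the cell classes of the mouse cardiac interstitium by droplet single-cell RNA sequencing. They were taken by symbol, as every feature named Tnfsf or Tnfrsf followed by a digit plus Tnf, Lta, Ltb, Ltbr, Cd40, Cd40lg, Fas, Fasl, Cd27, Cd70, Eda2r and Ngfr. The rule gave 44 of the 32286 features in the matrix, namely 17 ligands, 26 receptors and 1 antisense RNA, Tnfsf13os. The rule itself uses symbols and no expression value, although the members were chosen with earlier results of these data known.

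The hearts came from Ccr2creERT2-Ai14 mice, in which a tamoxifen-inducible Cre under control of the chemokine receptor gene Ccr2 acts on a tdTomato reporter. All 4 samples carried this strain, 2 from control animals and 2 from animals studied after stroke. A time of 1 month is given for all 4, which for the stroke animals is the time after stroke. The labels state neither an age nor how many hearts entered a sample. Hearts were minced and digested for 30 min, strained to remove cardiomyocytes, depleted of red and dead cells, and sorted for live nucleated cells. The cells analysed are therefore the non-myocyte cells that came through digestion and sorting, and 33 cells carried the markers of cardiomyocytes.

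The 4 libraries were deposited as 1 joined matrix whose barcode suffixes, 1 to 4, are tied to no sample in the labels or the file. For that reason the stroke and control groups are not contrasted here, and all cells count as 1 sample. Each value below is a sum of unique molecular identifiers (UMIs, each a tagged RNA molecule) over the cells of a class, given as CPM, the counts of a class scaled to the same total of UMIs in every class. Intervals are exact 95% Poisson intervals for a level and exact conditional binomial intervals for a ratio, and they hold the error of counting UMIs; the variation from animal to animal is not in them. The value in each of the 4 libraries stands beside them to show repeatability. No significance test was made, since the libraries are tied to no sample. The 3′ UMI counts are molecules captured near the transcript end and are not divided by length, so levels were compared between cells for the same gene.

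Of 39731 barcodes, 37594 were kept, between 8625 and 10031 in a library, with median depths of 2583 to 3487 UMIs. The libraries shared 161 barcode sequences. Cells were grouped by clustering with the 44 genes left out, so their own counts did not enter the sorting of cells into classes, although genes that vary with them could. Fixed markers named 22 classes, of which the 20 with at least 50 cells were compared, 10 immune-like and 10 non-immune. They held 4933 immune-like and 32298 non-immune cells together with 2 smaller classes, and 363 cells stayed unnamed. Libraries differed in which cells they gave: library 2 held 922 of 1519 B cell-like cells, library 3 held 629 of 1062 macrophage-like cells, and library 1 held 3458 of 8403 fibroblast-like cells. The plasma cell-like class had 75 cells, 69 of them from library 3, a median of 799 UMIs, and endothelial transcripts (Fabp4 at 5369 and Flt1 at 705 CPM), so its values are given with that reserve. The 144 classical monocyte-like cells were led by Spp1, Lgals3 and Gpnmb, listed markers of lipid-associated macrophages, as well as by Chil3, Ly6c2 and Ccr2. They held C1qa at 233 CPM, so their values may not be those of monocytes alone. No venous marker led the class named venous endothelial-like, whose leading genes were Kirrel3 and Samd5, so its values carry a reserve as well. With a stricter cell filter, with doublets kept or with 1 round of clusters, the cluster led by Kirrel3 was named capillary or general endothelial-like instead. At a finer clustering resolution a further cluster of 332 cells, led by Vwf with Lrg1, was also named venous endothelial-like.

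TNF superfamily ligands are mostly trimeric membrane proteins, some of which are cut from the cell surface, and their receptors carry cysteine-rich repeats outside the cell. Most receptors recruit TRAF adaptors and switch on NF-kB, whereas those with a death domain can also start apoptosis or necroptosis. In the heart the family is known for Tnf, an inflammatory cytokine made by macrophages, for co-stimulation between lymphocytes and antigen-presenting cells, and for Tnfsf12 acting on fibroblasts.

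RefSeq promoters, read as the 250 bases before each annotated start on GRCm38.p6, were found for 33 of the 44 genes; gene coordinates below are on the same build. They are shown for 3 genes that each had 1 class well above most others, to display the proximal DNA beside the levels, and capitals mark the match to the interferon-stimulated response element core (TTTC, any 2 bases, then TTTC, searched on both strands). The Tnf promoter (ENSMUSG00000024401, minus strand, chr17:35202008-35202257) holds no match, that of Tnfrsf1b (ENSMUSG00000028599, minus strand, chr4:145246871-145247120) holds 1 at its very end, and that of Fasl (ENSMUSG00000000817, minus strand, chr1:161788496-161788745) holds none.
Tnf: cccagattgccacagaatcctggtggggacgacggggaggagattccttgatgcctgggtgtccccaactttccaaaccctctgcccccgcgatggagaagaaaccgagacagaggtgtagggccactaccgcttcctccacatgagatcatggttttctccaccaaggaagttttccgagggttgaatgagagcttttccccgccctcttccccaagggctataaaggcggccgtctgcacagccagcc
Tnfrsf1b: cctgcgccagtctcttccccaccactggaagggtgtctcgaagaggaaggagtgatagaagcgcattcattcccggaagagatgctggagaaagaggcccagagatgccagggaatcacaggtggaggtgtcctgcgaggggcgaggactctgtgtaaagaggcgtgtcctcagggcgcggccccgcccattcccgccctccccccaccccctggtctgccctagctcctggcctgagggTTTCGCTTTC
Fasl: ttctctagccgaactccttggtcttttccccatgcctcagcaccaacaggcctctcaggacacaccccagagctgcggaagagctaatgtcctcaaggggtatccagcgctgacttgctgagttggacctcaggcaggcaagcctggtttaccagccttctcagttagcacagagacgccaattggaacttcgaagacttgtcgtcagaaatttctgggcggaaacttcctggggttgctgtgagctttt

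Matches to 2 motifs were few. The interferon-stimulated core was present in 3.46% of 27025 genes and in 4 of the 33 members (Tnfrsf1b, Tnfrsf14, Tnfrsf17 and Tnfsf13b). The NF-kB consensus, searched on both strands, was present in 4.46% of genes and in 3 of the 33 members (Ltb, Tnfrsf8 and Tnfrsf9). The windows around 2 of these matches are shown because both genes were high in lymphoid classes, with the consensus in capitals, from chr17:35194410-35194439 for Ltb and chr4:150927947-150927976 for Tnfrsf9, both on the plus strand. Tnfrsf9 had 2 promoter entries. The entry just before the gene start (chr4:150919905-150920154) held no match. The window shown is from the other (chr4:150927749-150927998), which lies within the gene. A match is a string in the sequence and was not tied to binding.
Ltb: aagggtgttcGGAAAGTCCCcgggcagggg
Tnfrsf9: agagcagctgGGGATTTCCCaggaggccct

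The members were mostly genes of the immune-like cells of the heart, and more so the ligands than the receptors. Of the 44 genes, 41 had at least 30 UMIs over all kept cells and entered the counts. Of these, 31 of 41 were highest in an immune-like class, beside 44% of all 18152 features that met the same minimum. Summed over the 2 compartments, 20 of 41 were at least 4-fold higher in immune-like than in non-immune cells, beside 11.7% of all features. They were 10 of 14 ligands and 10 of 26 receptors. The reverse difference was seen for 3 of 41 members, beside 19.3% of features: the ligand Tnfsf10 and the receptors Tnfrsf11b and Eda2r. A level at least 2-fold above every other class was seen for 18 of 41, beside 21.5% of features. The median ratio of immune-like to non-immune level was 3.49 for the members and 0.833 for all features.

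**Figure D1:**
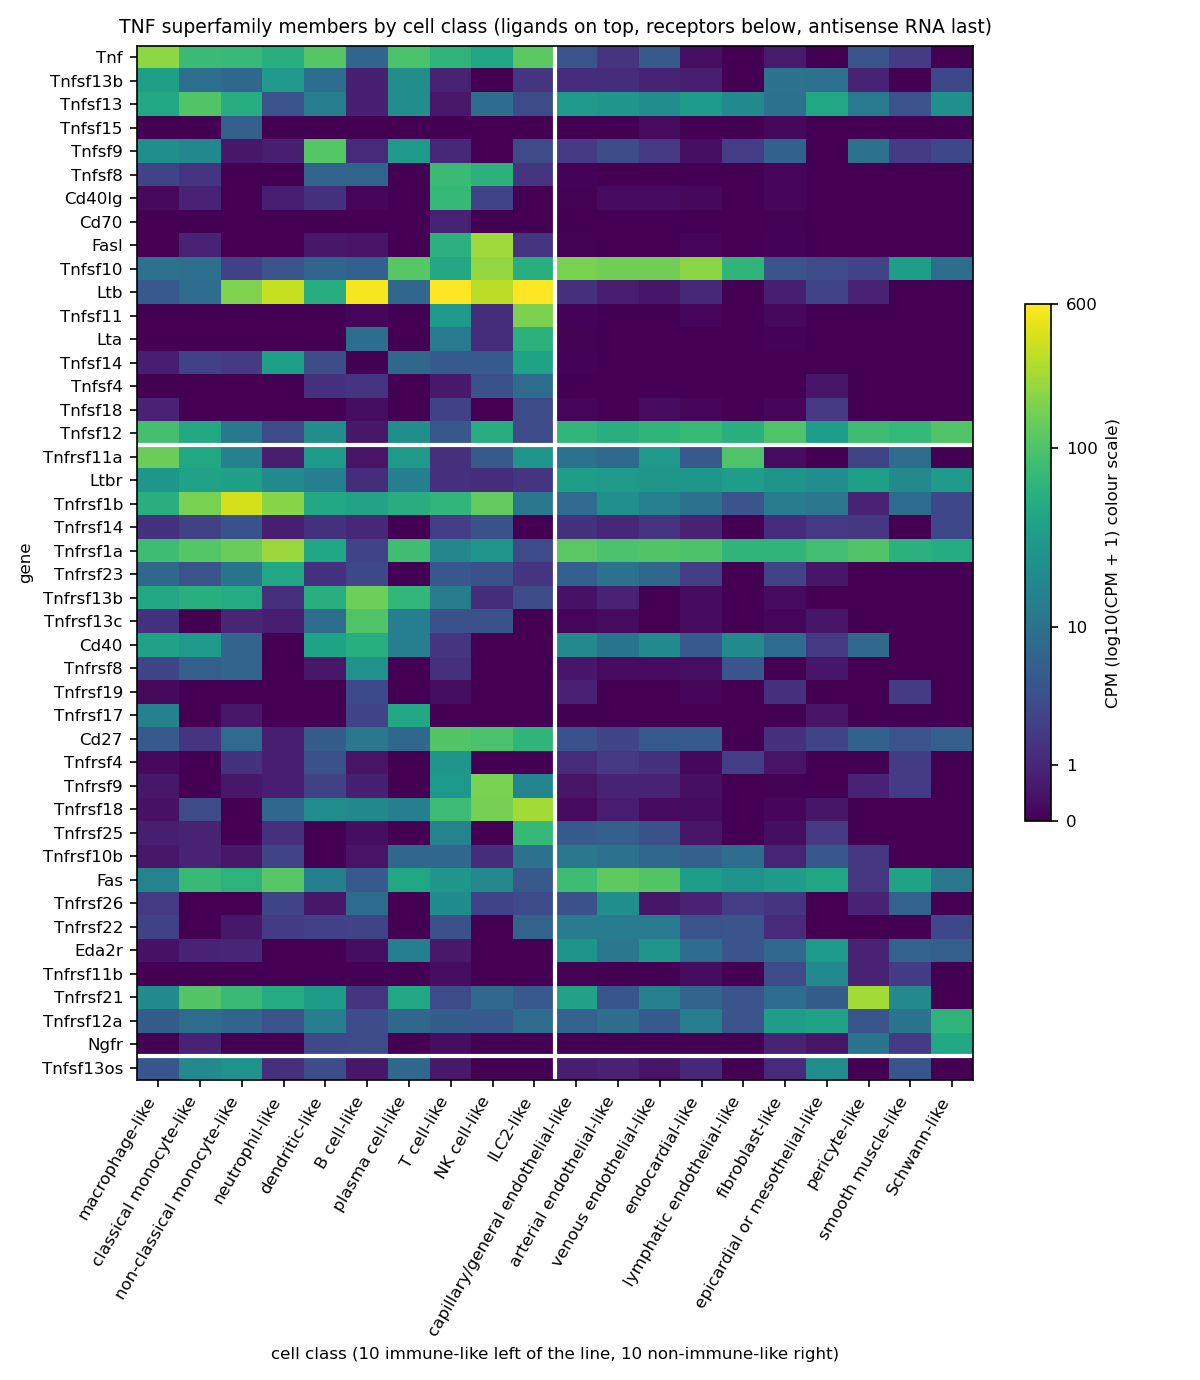
Colour gives the level of each of the 44 genes (rows) in each of the 20 compared classes (columns) in CPM on a log10(CPM + 1) colour scale, with ligands above, receptors below and the antisense RNA last. Ltb reaches 602 CPM in ILC2-like cells and is near 0 in every non-immune class, whereas Tnfrsf1a, Ltbr, Fas and Tnfsf12 fill most columns.

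Summed over the 17 ligands, the immune-like cells held 562 CPM and the non-immune cells 204 CPM, a ratio of 2.76 (2.70 to 2.82). The ratio was 3.36, 3.01, 1.92 and 2.80 in libraries 1 to 4, above 1 in each and lowest in library 3. The ligand sum was highest in ILC2-like cells, innate lymphocytes of the type 2 response, at 1073 CPM, followed by T cell-like (964) and NK cell-like cells (932). Ltb, lymphotoxin beta, made up 56.1% of the ligand UMIs of ILC2-like cells, 61.0% of those of T cell-like cells and 94.0% of those of B cell-like cells. Over the compartments Ltb held 316 CPM in immune-like and 1.04 CPM in non-immune cells, so the ratio of 2.76 rests largely on this gene. The ratio without Ltb was not computed. In macrophage-like cells the sum was 418 CPM, of which Tnf made 48.4%. Tnfsf10 made 60.8% to 64.5% of it in the capillary, arterial, venous and endocardial classes, and Tnfsf12 made 75.6% of it in fibroblast-like cells. Epicardial or mesothelial-like cells had the lowest sum, 98.4 CPM. These sums, shares and ratios leave out Eda, a ligand gene of the family that lies outside the symbol rule. Eda held 178 CPM in non-immune and 3.06 CPM in immune-like cells, with 329 CPM in fibroblast-like cells. Sums that include it were not computed.

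The receptor sums lay closer together. Immune-like cells held 505 CPM and non-immune cells 290 CPM, a ratio of 1.74 (1.71 to 1.78), with 1.89, 1.70, 1.58 and 1.70 in libraries 1 to 4. The highest sums were in myeloid cells: 830 CPM in non-classical monocyte-like, 679 in neutrophil-like and 657 in classical monocyte-like cells. Tnfrsf1b contributed 47.8% of the receptor UMIs in the first of these and Tnfrsf1a 33.6% in the second. Pericyte-like cells, with 431 CPM, had the highest receptor sum among non-immune classes, and 57.8% of it was Tnfrsf21. Smooth muscle-like cells were lowest, at 191 CPM.

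**Figure D2:**
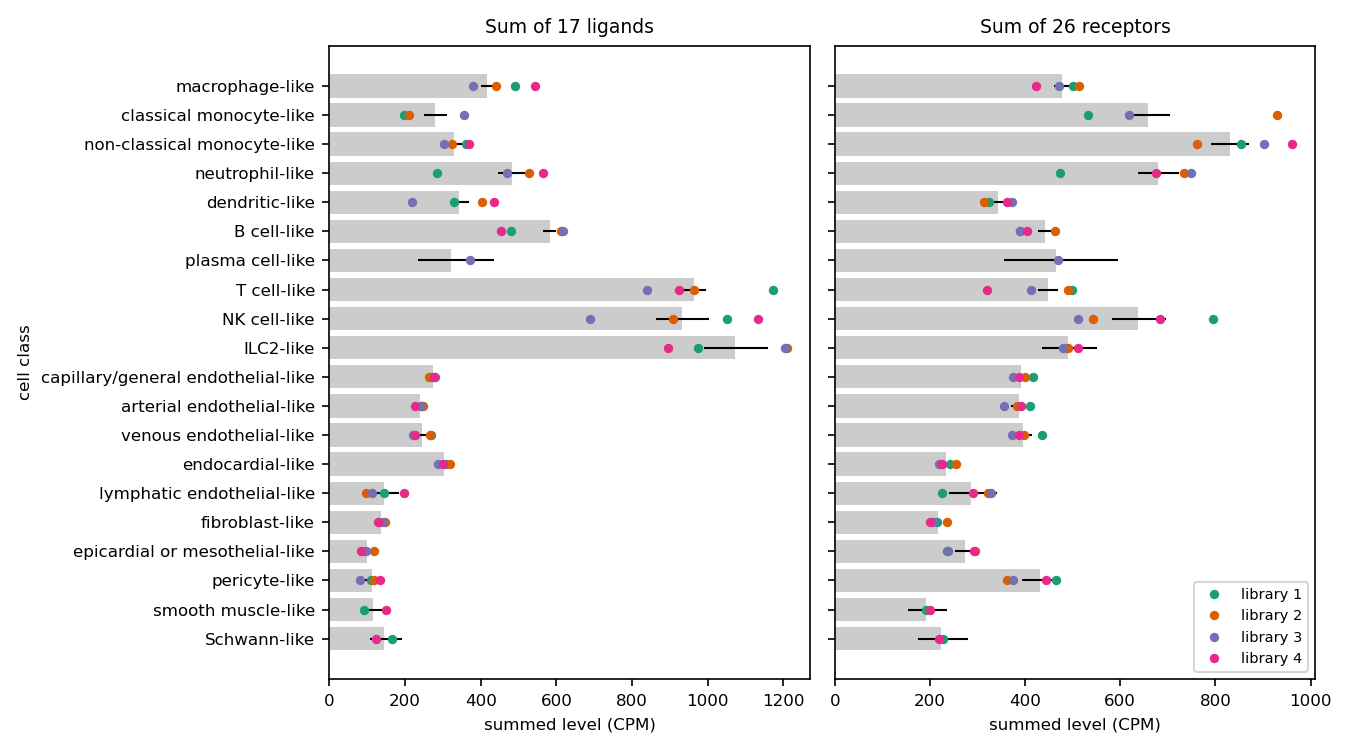
Bars give the summed level in CPM of the 17 ligands (left) and 26 receptors (right) in each class, lines the 95% counting interval, and points the libraries with at least 20 cells of the class. Ligand sums run from 98.4 to 1073 CPM and are highest in ILC2-like, T cell-like, NK cell-like and B cell-like cells, while receptor sums run from 191 to 830 CPM and are highest in monocyte-like and neutrophil-like cells.

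Among the ligands, lymphotoxin beta (Ltb, chr17:35194507-35196305), the membrane partner of lymphotoxin alpha that acts on Ltbr, was shared by the lymphocytes. Its level was 602 CPM (541 to 668) in ILC2-like, 588 (563 to 614) in T cell-like and 547 (531 to 564) in B cell-like cells. The first 2 were not separable by counting error, with a ratio of 1.02 (0.913 to 1.15). In libraries 1 to 4 the level in ILC2-like cells was 558, 626, 693 and 538 CPM. Neutrophil-like cells followed at 345 CPM, NK cell-like cells at 306 and non-classical monocyte-like cells at 173, and every non-immune class lay below 3 CPM. Within B cell-like cells Ltb was 893 CPM (844 to 944) in a sub-cluster led by the complement receptor gene Cr2 and Fcer2a. That sub-cluster also scored best as B-2-type, but only 2 markers reached 2-fold where 3 were required, so it stayed unnamed. Ltb was 556 CPM in the sub-cluster named B-2-type and 242 CPM in the B-1-type sub-cluster. In T cell-like cells it peaked at 986 CPM (885 to 1096) in the 72 cells that carried Il23r and the gamma-delta receptor gene Trdc.

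Lymphotoxin alpha (Lta, chr17:35203165-35205578) was scarce. It was highest in ILC2-like cells at 60.5 CPM (42.4 to 83.8), with 10.2, 209, 0 and 0 CPM in libraries 1 to 4. Its 36 UMIs there came from 5 cells, and 88.9% of them from 1 cell of library 2. Without library 2 the ILC2-like level was 4.63 CPM, with the stricter cell filter of at least 1000 UMIs it was 3.41 CPM, and in both cases T cell-like cells became highest. T cell-like cells held 12.7 CPM and B cell-like cells 9.05 CPM over all libraries. In 1 T cell sub-cluster, described below, most of the Lta UMIs also came from 1 cell. The counting interval does not cover such single cells.

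Tnf itself (chr17:35199367-35202007), the founding cytokine of the family, was highest in macrophage-like cells, phagocytes of the heart tissue. Its level there was 202 CPM (191 to 214), with 257, 211, 168 and 347 CPM in libraries 1 to 4, so that libraries 3 and 4 were 2-fold apart beyond counting error. ILC2-like cells followed at 119 CPM, dendritic-like cells at 112, classical monocyte-like cells at 76.6 and non-classical monocyte-like cells at 72.7. The ratio of macrophage-like to ILC2-like cells was 1.69 (1.33 to 2.18). T cell-like cells held 63.5 CPM and neutrophil-like cells 56.3. Fibroblast-like cells, at 0.597 CPM, and the large capillary class, at 4.14 CPM, were near 0.

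Within macrophage-like cells Tnf ran over a wide range. The level was 527 CPM (466 to 594) in sub-cluster 4, 79 cells led by S100a9, Fn1 and Il1b, where 58 of the 269 UMIs were from 1 cell. It was 212 CPM in sub-cluster 2, 270 cells led by Gadd45b, Cxcl2 and Ccl4, and 199 CPM in the MHC-II-high sub-cluster. The resident sub-cluster, marked by Lyve1 and Timd4, had the lowest level, 113 CPM (97.7 to 131). A sub-cluster of 88 cells at 162 CPM carried endothelial transcripts (Fabp4 at 2735 CPM).

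Early response genes such as Fos and Jun are known to be switched on during tissue digestion, and the summed level of 12 of them was set beside Tnf. It was 19354 CPM in macrophage sub-cluster 2, 9216 in sub-cluster 4, 3553 in the resident and 3411 in the MHC-II-high sub-cluster. Neutrophil cluster 1007 had a sum of 14318 CPM with Tnf at 56.6 CPM, and the MHC-II-high macrophages had 3411 CPM with Tnf at 199 CPM. Over whole classes the sum was 8985 CPM in macrophage-like cells, 10017 in ILC2-like and 11889 in neutrophil-like cells, and 1076 in the capillary class. The part of these genes' response in the Tnf levels was not tested.

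**Figure D3:**
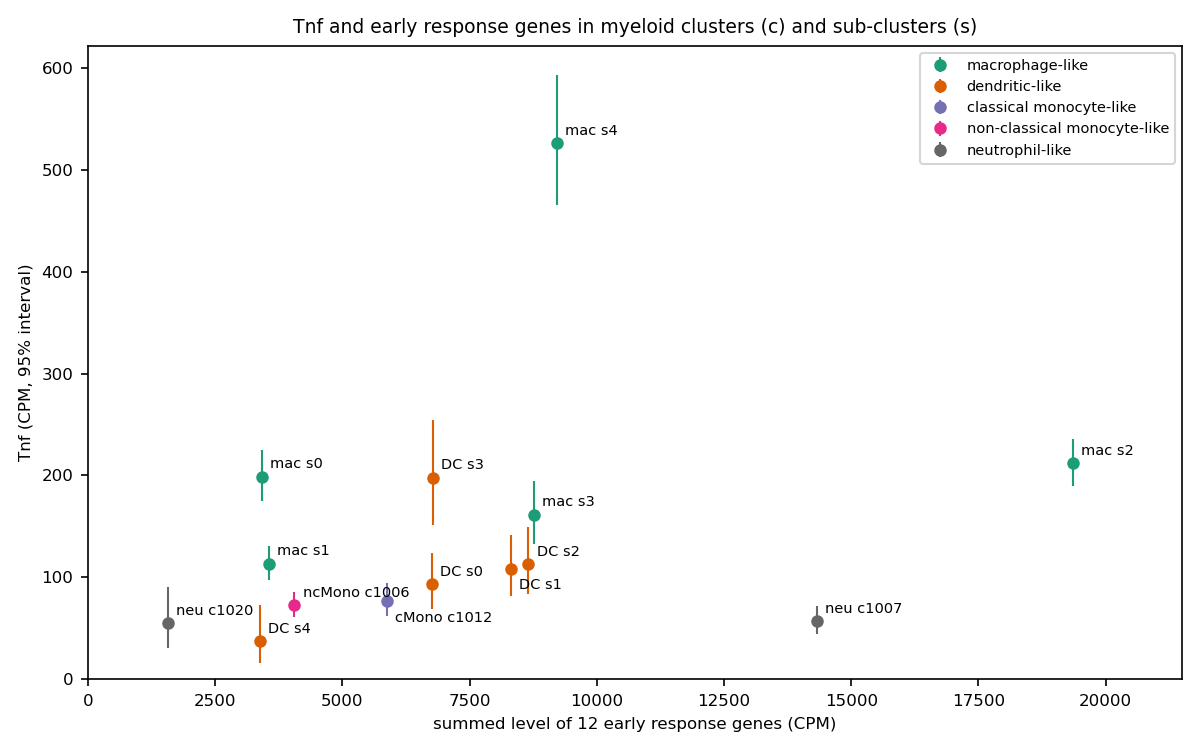
Each point is a myeloid cluster (c) or sub-cluster (s), with the summed level of 12 early response genes in CPM on the x axis and Tnf in CPM with its 95% counting interval on the y axis. Macrophage sub-cluster 4 (mac s4) stands at 527 CPM of Tnf with 9216 CPM of early response genes, while neutrophil cluster 1007 (neu c1007) has 14318 CPM of these genes and 56.6 CPM of Tnf.

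The death ligand genes Fasl and Tnfsf10 were found in different cells outside the NK cell-like class. Fasl (chr1:161780691-161788495), whose product kills cells that carry Fas, was at 236 CPM (202 to 272) in NK cell-like cells and 58.0 CPM in T cell-like cells. The 4 libraries gave 257, 305, 195 and 184 CPM in the former. Those NK values all lay above the T cell-like level, and no other class exceeded 1.68 CPM. Within T cell-like cells it was 211 CPM (162 to 272) in sub-cluster 5, whose 62 cells carried Cd8a at 121 CPM but were led by NK receptor genes such as Klra5.

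Tnfsf10 (chr3:27317077-27339665), which encodes TRAIL, was the one member ligand at least 4-fold higher in non-immune than in immune-like cells, at 86.7 against 20.6 CPM. Endocardial-like cells held 196 CPM (188 to 204), capillary or general endothelial-like cells 166, venous 149 and arterial 148. The endocardial value was 192, 202, 179 and 202 CPM in libraries 1 to 4, which overlap closely. Lymphatic endothelial-like cells were lower, at 64.0 CPM (42.9 to 91.9), and fibroblast-like cells were at 4.43 CPM. NK cell-like cells were nominally highest at 212 CPM (181 to 247), with 231, 161, 186 and 280 CPM by library. Their ratio to endocardial-like cells was 1.08 (0.918 to 1.27), so the 2 classes were not separable by counting error. The NK value came from one of 2 clusters: 327 CPM (278 to 383) in the 104 cells led by Xcl1 and Tox, and 24.0 CPM (9.65 to 49.5) in the 67 cells led by Gzma and Prf1. The former cluster had 4 NK markers at 2-fold or above and the latter 7, and the NK cell-like class value of every member pools both. At a finer clustering resolution a cluster of 159 cells led by Xcl1, with Tox, was named T cell-like. Only the 67 cells led by Gzma stayed NK cell-like there. The NK cell-like class then held 24.0 CPM and endocardial-like cells became highest for Tnfsf10.

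Among endothelial clusters Tnfsf10 was highest, at 261 CPM (246 to 277), in capillary cluster 9, 1616 cells in which Isg15, Ifit1 and Rsad2 summed to 2315 CPM. These 3 are interferon-stimulated genes and were among the genes used to cluster. The next cluster, endocardial cluster 7, held 220 CPM of Tnfsf10 with a sum of 157 CPM for the same 3 genes. The other capillary, arterial and venous clusters lay between 132 and 171 CPM, with sums between 293 and 415 CPM.

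**Figure D4:**
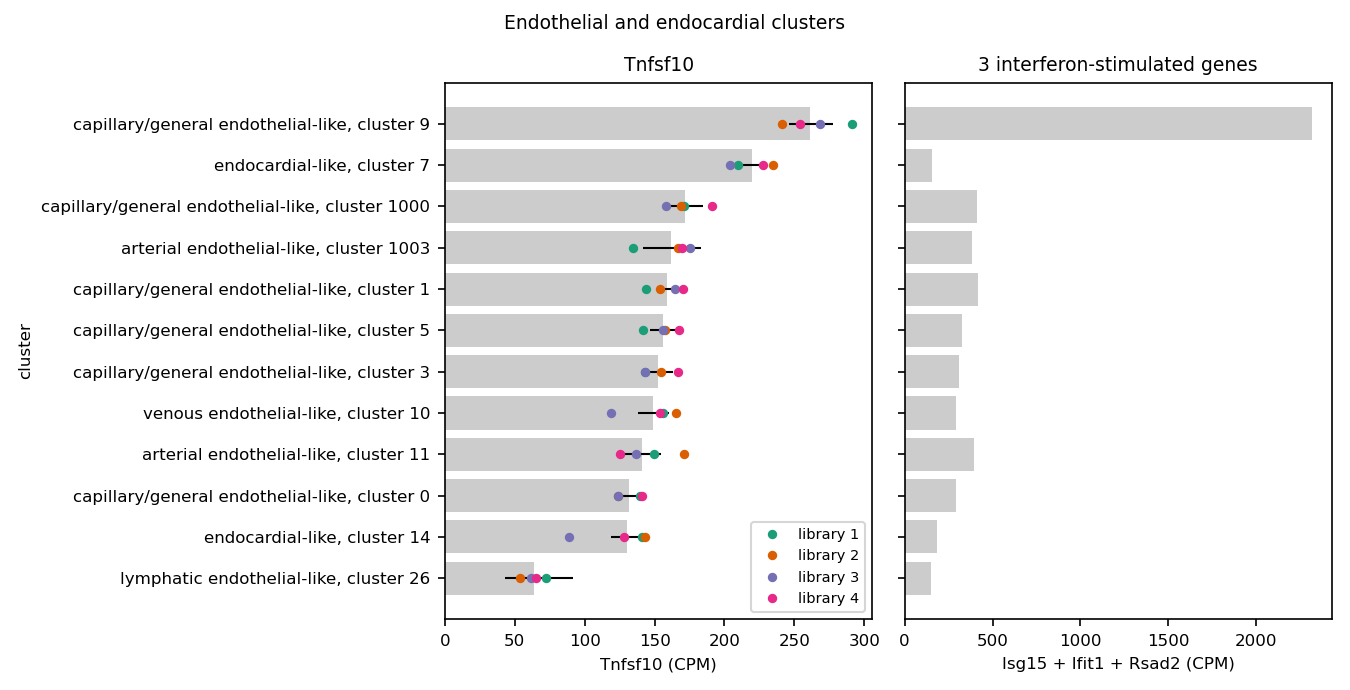
Bars give Tnfsf10 in CPM (left, with 95% counting intervals and points for libraries 1 to 4) and the summed level of Isg15, Ifit1 and Rsad2 in CPM (right) in the 12 endothelial and endocardial clusters. Capillary cluster 9 is highest in both at 261 and 2315 CPM, while endocardial cluster 7 has 220 CPM of Tnfsf10 and 157 CPM of the 3 genes.

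Several co-stimulatory ligand genes marked lymphocytes. Cd40lg (chrX:57212143-57224042), the T cell help signal to B cells, was at 71.5 CPM (63.1 to 80.8) in T cell-like cells, with 92.0, 69.8, 51.3 and 82.4 CPM in libraries 1 to 4. The next class, NK cell-like, held 2.60 CPM on 2 UMIs, and each library of T cells lay above it. Cd40lg was 238 CPM (192 to 291) in T cell sub-cluster 3, whose 101 cells were named regulatory T by their markers (Foxp3 at 64.6, Ctla4 and Cd4). The same cells also held Cd8a at 80.1 CPM and were led in part by Ifng, so the name covers a mixed group. Tnfsf8, the CD30 ligand gene, was at 76.8 CPM (68.0 to 86.3) in T cell-like cells, 59.9 CPM in NK cell-like and 6.85 CPM in B cell-like cells. Its libraries gave 82.8, 86.8, 73.5 and 45.4 CPM, and the ratio of the first 2 classes was 1.28 (0.936 to 1.79).

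Tnfsf11, which encodes RANKL, was a gene of ILC2-like cells at 170 CPM (138 to 206). Libraries 1 to 4 gave 200, 153, 197 and 110 CPM, all above the 31.2 CPM of T cell-like cells. The ratio of the 2 classes was 5.44 (4.12 to 7.18). Among T cell-like cells it was concentrated in the Il23r and Trdc sub-cluster, at 183 CPM (141 to 234), which overlapped the ILC2-like level. No class other than these 2 exceeded 1.30 CPM.

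Tnfsf9, the 4-1BB ligand gene, was highest in dendritic-like cells at 112 CPM (97.3 to 127). By library it was 168, 106, 78.8 and 112 CPM, and libraries 1 and 3 were 2-fold apart beyond counting error. Plasma cell-like cells followed at 30.0 CPM on 4 UMIs and macrophage-like cells at 23.0 CPM. Within dendritic-like cells the level was 277 CPM (230 to 332) in the type 2 sub-cluster, marked by Cd209a, and 8.19 CPM in the type 1 sub-cluster, marked by Xcr1. Of the dendritic-like cells, 31 were led by the macrophage genes C1qa and C1qb, and these held 87.6 CPM.

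Ligands of stromal and myeloid cells formed another group. Tnfsf12, which encodes TWEAK, was broad: 105 CPM (73.4 to 147) in Schwann-like cells on 35 UMIs, 103 (100 to 105) in fibroblast-like, 90.8 in macrophage-like and 81.3 in pericyte-like cells. Schwann-like and fibroblast-like levels had a ratio of 1.03 (0.714 to 1.43) and were not separable. By library the fibroblast-like level was 99.5, 113, 105 and 95.8 CPM, and the Schwann-like level was 127, 55.4, 183 and 68.3 CPM, where libraries 2 and 3 rest on 18 and 8 cells. Lymphocytes and neutrophils stood apart, with 0.517 CPM in B cell-like, 4.69 in T cell-like and 3.47 in neutrophil-like cells. Within macrophage-like cells Tnfsf12 was highest, 123 CPM (107 to 141), in the resident sub-cluster and lowest, 50.9 CPM, in sub-cluster 4, an order in which those sub-clusters stood the other way round for Tnf.

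Tnfsf13, which encodes APRIL, was at 105 CPM (87.0 to 125) in classical monocyte-like cells, with 83.8, 32.0, 142 and 122 CPM in libraries 1 to 4. Library 2 lay well below library 3, library 4 rests on 14 cells, and without library 3 the level was 72.9 CPM. Non-classical monocyte-like cells held 52.3 CPM, epicardial or mesothelial-like cells 45.7 and macrophage-like cells 45.4, and the endocardial and capillary classes about 30. With a single round of clustering the classical monocyte-like level was 46.5 CPM and non-classical monocyte-like cells were highest. The classical monocyte-like class of that setting was a wider one of 453 cells, with H2-Ab1 among its leading genes, and no class was named dendritic-like. The antisense RNA Tnfsf13os overlaps Tnfsf13 over 2978 bases, and Tnfsf12 lies 685 bases from it. The sources used here do not state whether the counting used strand, so the split between Tnfsf13 and Tnfsf13os (24.9 CPM in non-classical monocyte-like and 22.1 in epicardial or mesothelial-like cells) is uncertain. Tnfsf13b, which encodes the B cell survival factor BAFF, was highest in macrophage-like cells at 36.9 CPM (32.1 to 42.3) and in neutrophil-like cells at 30.6 CPM. Its 4 libraries of macrophage-like cells gave 47.2, 27.6, 33.4 and 66.1 CPM.

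The remaining ligands were rare. Tnfsf14, the LIGHT gene, was at 40.4 CPM (25.9 to 60) in ILC2-like cells on 24 UMIs and 36.1 CPM (27.0 to 47.4) in neutrophil-like cells. Tnfsf18, the ligand gene of Tnfrsf18, had 34 UMIs in all and was nominally highest in ILC2-like cells at 3.36 CPM on 2 UMIs, and 2.14 CPM without library 3. Below the minimum of 30 UMIs lay Tnfsf4 with 28, Tnfsf15 with 21, of which 12 were in non-classical monocyte-like cells, and Cd70 with 5. Absence of their transcripts from a class cannot be read at this depth.

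Both receptors of Tnf were myeloid in their highest class but differed in breadth. Tnfrsf1b (chr4:145212368-145246870), which lacks a death domain, was at 396 CPM (369 to 425) in non-classical monocyte-like cells, the patrolling monocytes of blood vessels. The libraries gave 421, 360, 433 and 456 CPM there, all above the next class, neutrophil-like cells at 194 CPM. The ratio between these classes was 2.05 (1.78 to 2.35). Classical monocyte-like cells held 167 CPM, NK cell-like cells 129, macrophage-like cells 55.2 and arterial endothelial-like cells 24.0.

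Tnfrsf1a (chr6:125349723-125362483), the death domain receptor, was present in most classes. It was at 228 CPM (204 to 254) in neutrophil-like, 143 in non-classical monocyte-like, 117 in capillary, 111 in classical monocyte-like and 104 in pericyte-like cells. In libraries 1 to 4 the neutrophil-like level was 176, 229, 225 and 261 CPM. Non-immune classes ranged from 51.2 CPM in Schwann-like cells upward, whereas B cell-like cells held 2.72 CPM, ILC2-like cells 3.36 and T cell-like cells 18.5. Its immune-like level was 0.634 of the non-immune level. Neutrophil-like cells were of 2 kinds: Tnfrsf1a was 261 CPM and Tnfrsf1b 237 CPM in the 395 cells of cluster 1007, led by Il1r2 and Retnlg. They were 87.5 and 10.9 CPM in the 39 cells of cluster 1020, led by the granule genes Ngp, Camp and Ltf.

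Ltbr, the receptor gene for lymphotoxin alpha-beta and LIGHT, was near 0 in the lymphocytes that held Ltb. It was at 39.2 CPM (28.7 to 52.2) in classical monocyte-like, 38.4 in non-classical monocyte-like, 35.7 in pericyte-like and 26.7 in fibroblast-like cells, with no separable order among the first 3. The lymphocyte classes lay between 1.29 CPM in B cell-like cells and 1.68 CPM in ILC2-like cells. With 1 round of clustering, where the classical monocyte-like class was a wider one of 453 cells, its level was 24.5 CPM. After thinning to 1000 UMIs a cell the classical monocyte-like level was 20.8 CPM. Tnfrsf14, the other receptor gene for LIGHT, reached only 3.98 CPM in non-classical monocyte-like cells on 8 UMIs, and 8.32 CPM there without library 2.

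Death receptors were spread over endothelium, neutrophils and mural cells. Fas (chr19:34290647-34327775) was at 121 CPM (112 to 132) in arterial endothelial-like, 114 (97.1 to 133) in neutrophil-like, 107 in venous and 81.1 in capillary cells. The arterial value was 146, 120, 103 and 111 CPM in libraries 1 to 4, and its ratio to neutrophil-like cells was 1.07 (0.894 to 1.28), so the order of these is not fixed. Without library 1 neutrophil-like cells were highest. Pericyte-like cells, which wrap the same vessels, held 1.79 CPM (0.216 to 6.45) on 2 UMIs.

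Tnfrsf21 (chr17:43016555-43089188), the death receptor DR6, had the opposite vascular pattern. Pericyte-like cells held 249 CPM (221 to 280), and libraries 1 to 4 gave 294, 144, 169 and 274 CPM, with libraries 1 and 2 set 2-fold apart beyond counting error. Classical monocyte-like cells were next at 106 CPM, and the ratio was 2.34 (1.89 to 2.91). Capillary cells held 39.0 CPM, smooth muscle-like cells 19.3 and arterial endothelial-like cells less. Thus each library of pericyte-like cells lay above the level of every other class for Tnfrsf21.

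The TRAIL receptor genes gave few UMIs. Tnfrsf10b, the only mouse TRAIL receptor gene with a death domain, was at 11.8 CPM (10.7 to 13.0) in the capillary class, where its ligand gene Tnfsf10 was at 166 CPM. The decoy receptor genes Tnfrsf22 and Tnfrsf23 were at 13.7 CPM in arterial endothelial-like and 45.2 CPM (34.8 to 57.5) in neutrophil-like cells. Tnfrsf26, their neighbour on chromosome 7, was at 23.1 CPM in arterial endothelial-like and 21.5 CPM in T cell-like cells. These 3 genes are paralogs, and whether reads are shared between them was not tested. Tnfrsf11b, which encodes osteoprotegerin, a soluble decoy for RANKL and TRAIL, was at 20.2 CPM (14.7 to 27.3) in epicardial or mesothelial-like and 3.38 CPM in fibroblast-like cells. In libraries 1 to 4 the former was 3.69, 34.3, 0 and 23.8 CPM, and without library 2 it was 13.3 CPM.

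The receptor genes of BAFF and APRIL differed in their cells: Tnfrsf13c lay mostly in B cell-like cells, Tnfrsf13b in B cell-like and myeloid cells, and Tnfrsf17 mostly in macrophage-like cells. Tnfrsf13c (chr15:82221742-82224380), the BAFF receptor gene, was at 105 CPM (97.5 to 112) in B cell-like cells and at most 15 CPM, on 2 UMIs, elsewhere. Libraries 1 to 4 gave 63.6, 116, 97.5 and 67.0 CPM. It was 219 CPM (195 to 245) in the Cr2 and Fcer2a sub-cluster and 38.8 CPM in the B-1-type sub-cluster. Tnfrsf13b, which encodes TACI, was at 144 CPM (136 to 153) in B cell-like cells, with 135, 148, 129 and 141 CPM by library. Classical monocyte-like cells held 56.2 CPM of Tnfrsf13b, dendritic-like 54.0, non-classical monocyte-like 50.3 and macrophage-like 45.2, while every non-immune class was near 0. Tnfrsf17, which encodes BCMA, had 6 UMIs, all in 1 cell, in plasma cell-like cells, and 15.8 CPM (12.7 to 19.5) in macrophage-like cells, which were highest without the plasma cell-like class. Without library 2 the plasma cell-like level of Tnfrsf17 was 0.

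Cd40 (chr2:165055614-165071654), the receptor gene for Cd40lg, spanned antigen-presenting and endothelial cells. It was at 55.1 CPM (50 to 60.6) in B cell-like, 40.2 in dendritic-like, 39.4 in macrophage-like and 29.8 in classical monocyte-like cells. The libraries of B cell-like cells gave 63.6, 53.5, 75.4 and 46.4 CPM. Venous and capillary cells held 21.1 and 19.4 CPM, and neutrophil-like and Schwann-like cells had no UMI. A count of 3 UMIs would be 2.08 CPM in the former and 9.03 CPM in the latter. Migratory dendritic cells, marked by Ccr7, had the highest dendritic level, 62.9 CPM (43.3 to 88.3).

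Co-stimulatory receptors lay in T, NK and ILC2-like cells. Tnfrsf18, which encodes GITR, was at 249 CPM (210 to 292) in ILC2-like, 161 in NK cell-like and 79.8 in T cell-like cells. By library the ILC2-like level was 251, 264, 268 and 201 CPM, each above the T cell-like level, and the ratio to NK cell-like cells was 1.54 (1.21 to 1.97). T cell sub-cluster 3 alone reached 232 CPM (187 to 286). Tnfrsf9, the 4-1BB gene, was at 167 CPM (139 to 198) in NK cell-like and 29.3 CPM in T cell-like cells. Its libraries spread from 201 and 239 CPM in libraries 1 and 2 to 131 and 82.0 CPM in libraries 3 and 4. The ratio of the 2 classes was 5.69 (4.37 to 7.43).

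Cd27, the receptor gene of Cd70, was at 108 CPM (97.8 to 119) in T cell-like, 97.6 in NK cell-like and 65.6 in ILC2-like cells. Libraries 1 to 4 gave 82.8, 138, 74.9 and 82.4 CPM of Cd27 in T cell-like cells. Library 2 stood above the others, and without it the level was 79.6 CPM and NK cell-like cells were highest. Tnfrsf25, the DR3 gene, was at 72.3 CPM (52.3 to 97.4) in ILC2-like cells, with 82.0, 43.0, 70.9 and 100 CPM by library, and at 16.6 CPM in T cell-like cells. The Il23r and Trdc sub-cluster of T cells reached 77.4 CPM. Tnfrsf4, the OX40 gene, was at 27.3 CPM (22.2 to 33.3) in T cell-like cells and at 189 CPM (148 to 237) in T cell sub-cluster 3, the cells that were also highest for Cd40lg. Tnfrsf8, the CD30 gene, was at 25.5 CPM (22.0 to 29.3) in B cell-like cells and 72.8 CPM (61.1 to 86.2) in the B-1-type sub-cluster. That class-level value was 3.1 CPM with the stricter cell filter, 3.13 CPM with doublets kept and 4.38 CPM at a finer clustering resolution, and non-classical monocyte-like cells were then highest. In each of these settings a cluster led by Agbl1, with Sox5 and Jchain, stayed unnamed and lay outside the B cell-like class. In the main setting the cluster with these leading genes was B cell-like, and Agbl1 and Sox5 were among the leading genes of the B-1-type sub-cluster.

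Tnfrsf11a (chr1:105780673-105849444), which encodes RANK, was a receptor of macrophage-like cells at 143 CPM (134 to 153). The libraries gave 146, 135, 148 and 124 CPM, a narrow range. Lymphatic endothelial-like cells were next at 102 CPM (74.3 to 135), while venous cells held 29.7 CPM and fibroblast-like cells 0.235 CPM. The ratio of the first 2 was 1.41 (1.05 to 1.94). MHC-II-high and resident macrophages held 181 and 163 CPM, and sub-cluster 2 held 103 CPM.

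The last receptors were those of stromal and neural cells. Tnfrsf12a, the TWEAK receptor gene Fn14, was at 63.2 CPM (39.1 to 96.6) in Schwann-like cells on 21 UMIs, 39.1 CPM in epicardial or mesothelial-like and 34.9 CPM (33.3 to 36.5) in fibroblast-like cells. Within fibroblast-like cells it was 143 CPM (114 to 177) in the 85 chemokine-producing cells led by Ccl2 and Ccl7, and 85.7 CPM in the 117 cells led by Postn and Cilp. Ngfr, the p75 neurotrophin receptor gene, was at 45.2 CPM (25.3 to 74.5) in Schwann-like cells on 15 UMIs and 10.7 CPM in pericyte-like cells. Without library 1 the Schwann-like level was 27.8 CPM for Ngfr. Eda2r, a receptor gene for an isoform of Eda, was at 32.0 CPM (24.9 to 40.6) in epicardial or mesothelial-like, 27.1 in venous and 26.4 in capillary cells. Its epicardial libraries gave 36.9, 28.6, 35.7 and 30.8 CPM. Tnfrsf19, the TROY gene, was nominally highest in B cell-like cells at 3.23 CPM, yet 66 of its 143 UMIs lay in the 210 fibroblast-like cells led by Erbb4 and Wif1, at 49.6 CPM (38.4 to 63.1). With the stricter cell filter, where the cluster led by Agbl1 lay outside the class, the B cell-like level was 1.11 CPM and smooth muscle-like cells were highest.

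The members were also compared between libraries. A 2-fold or larger gap between the lowest and the highest library of the highest class, with counting intervals that did not overlap, was found for 9 of 40 members that could be compared, beside 7.54% of all features. They were Tnf, Lta, Tnfsf9, Tnfsf13 and Tnfsf13b among ligands and Tnfrsf4, Tnfrsf8, Tnfrsf9 and Tnfrsf21 among receptors. The libraries are tied neither to groups nor to animals, and they also differed in the cells they held of each sub-cluster, whose part in these gaps was not tested. Among the fully described members the narrowest ranges were these: the highest and lowest libraries were 1.15-fold apart for Tnfrsf13b, 1.19-fold for Tnfrsf11a, 1.27-fold for Tnfrsf1b and 1.29-fold for Ltb.

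**Figure D5:**
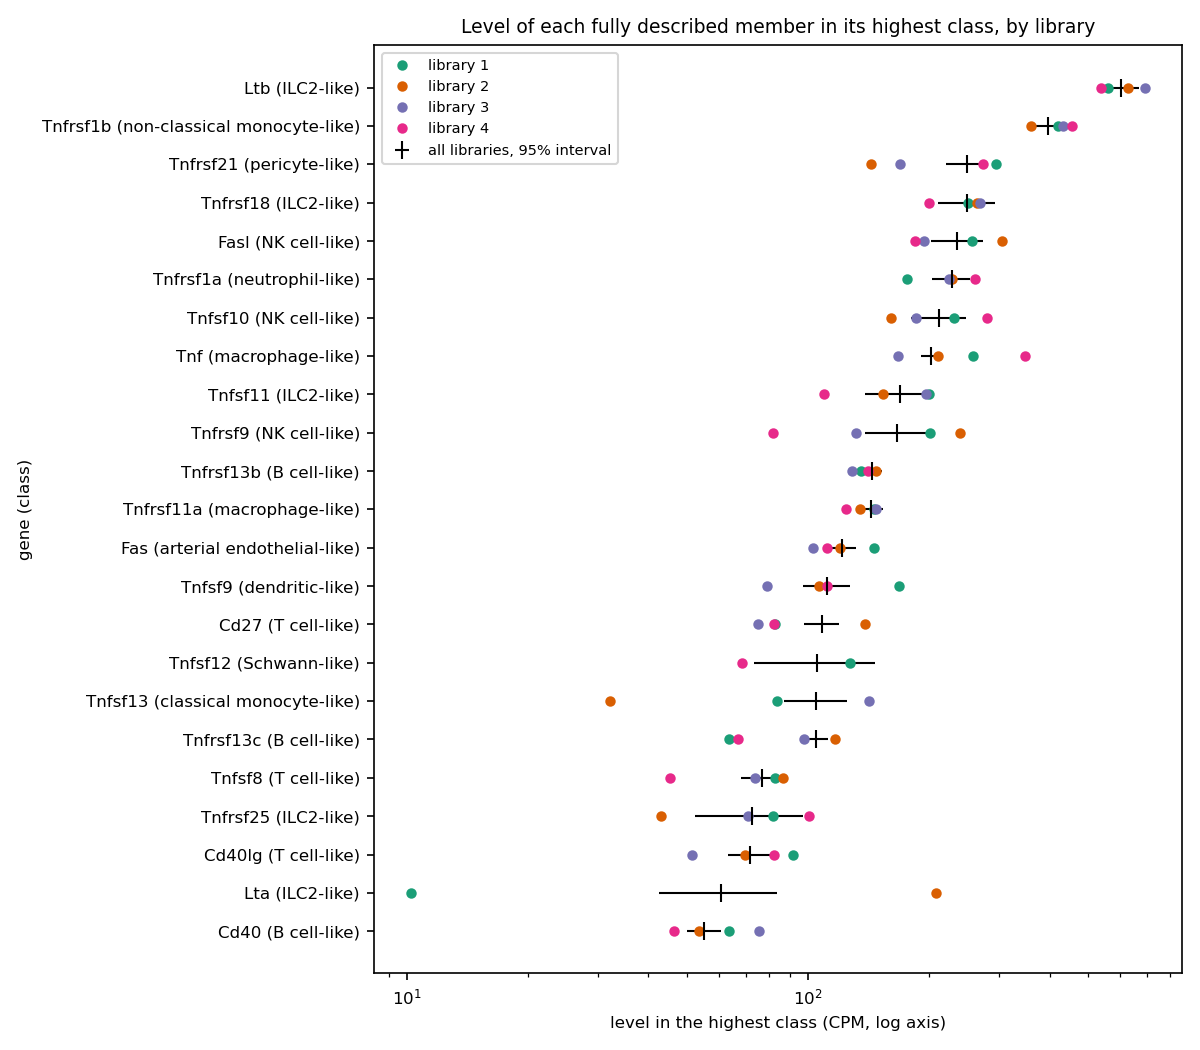
Each row is 1 of the 23 members with at least 50 CPM and 30 UMIs in its highest class, with that level in CPM on a log axis, in libraries 1 to 4 (coloured points, libraries with at least 20 cells of the class) and over all libraries with its 95% counting interval (black). Tnfrsf11a spans 124 to 148 CPM, Tnf spans 168 to 347 CPM, and Lta has points at 10.2 and 209 CPM while its 2 libraries at 0 cannot be drawn.

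Ligands were also set beside the receptors that bind them. Of 27 known pairs among the members, 24 had both genes at 30 UMIs or more, and the highest classes differed for 22 of these; the share for other gene pairs was not computed. The 2 exceptions were Tnfsf12 with Tnfrsf12a in Schwann-like cells, on 35 and 21 UMIs, and Tnfsf18 with Tnfrsf18 in ILC2-like cells, on 2 ligand UMIs. For Tnf, the macrophage-like cells highest for the ligand held 80.7 CPM of Tnfrsf1a and 55.2 CPM of Tnfrsf1b. ILC2-like cells, highest for Ltb, held 1.68 CPM of Ltbr, and NK cell-like cells, highest for Fasl, held 19.5 CPM of Fas. T cell-like cells, highest for Cd40lg, held 1.66 CPM of Cd40. The highest class for Tnfsf11, ILC2-like cells, held 26.9 CPM of Tnfrsf11a beside 143 CPM in macrophage-like cells.

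A list of 60 genes of the pathway was chosen with earlier results of these data known. Most carry the signal onward, while 8 act in shedding and processing and 3 are family members outside the symbol rule. All of these groups are in the counts over the list. Of 59 with at least 30 UMIs, 46 were highest in an immune-like class, beside 44% of all features. At least 4-fold higher in immune-like cells were 9 of 59, a share near the 11.7% of all features, and 4 were at least 4-fold higher in non-immune cells, beside 19.3%. Their median ratio of immune-like to non-immune level was 1.28, beside 3.49 for the members. The group counts that follow stand beside the same 44% of all features. Among 16 adaptors and ubiquitin ligases, 13 were highest in immune-like cells: the adaptor genes Traf1 and Traf3 reached 372 and 224 CPM in non-classical monocyte-like cells, where Tnfrsf1b was also highest. Birc3, an inhibitor of apoptosis, reached 406 CPM in neutrophil-like cells, and Xiap, another, 356 CPM in capillary cells. In the cell death arm 8 of 10 genes were highest in immune-like cells, and Bcl2l11, a pro-apoptotic gene, reached 229 CPM in NK cell-like cells.

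In the NF-kB arm, 10 of 13 genes were highest in immune-like classes. Of these, 4 of the 5 named by their level peaked in non-classical monocyte-like cells: Rel at 834 CPM, Ikbkb at 295, Tab2 at 256 and Map3k14 at 206. Nfkb1, the p105 subunit gene, was at 2233 CPM (2115 to 2357) in ILC2-like cells. Negative regulators were highest in immune-like cells for 9 of 10 genes. Nfkbia and Tnfaip3, which restrain NF-kB, reached 1774 and 866 CPM in ILC2-like cells, Tnip1 207 CPM in non-classical monocyte-like cells, and Tax1bp1 453 CPM in neutrophil-like cells. Itch, a ubiquitin ligase, reached 226 CPM in Schwann-like cells. ILC2-like cells had an early response sum of 10017 CPM, and its part in these levels was not tested.

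Shedding and processing genes were less one-sided, with 5 of 8 highest in immune-like classes. Adam10, a sheddase, reached 400 CPM in lymphatic endothelial-like cells, and Timp3, an inhibitor of Tnf shedding, 1587 CPM in the same cells. Sppl2a reached 335 CPM in non-classical monocyte-like cells and Furin 397 CPM in ILC2-like cells. Eda, the ligand gene for Eda2r that lies outside the symbol rule, reached 446 CPM in Schwann-like and 329 CPM in fibroblast-like cells.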

How the data were processed

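Cardiac interstitial cells of 2 control and 2 stroke samples were sequenced as 3′ libraries with Cell Ranger 7.1.0 and mm10, per the submitters' processing notes. The authors deposited raw UMI counts as 1 joined matrix, not normalized; no column of another sample was present (0 columns). Barcodes with fewer than 500 UMIs, fewer than 250 genes or a mitochondrial share above 15% were dropped (821 in all), and 1316 doublets marked by Scrublet in each library were removed. Total counts per library ran from 31955157 to 45834980, which sets the counting intervals. Cells were clustered with scanpy 1.11.5 on 2000 variable genes and 30 principal components (Leiden resolution 1) in 2 rounds, leaving out 241 genes, the members among them. UMIs were then summed per class. The second round, the removal of 8 globin genes and the doublet threshold of library 3 (0.2077, since the automatic 0.6125 marked 0 cells) were set after the first clusters or scores were seen. The sums and intervals were tested on simulated Poisson counts drawn from known class levels. Those counts have no clumping in single cells, as Lta had, so the simulation cannot show how the intervals hold for such genes.

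The members and gene lists were chosen with earlier results of these data known. Members with at least 30 UMIs and 50 CPM in the highest class are described in full with each library, other members with at least 30 UMIs by their highest class, the rest by their UMI count, and pathway genes at 200 CPM or more by their highest class. The sub-clusters described were chosen after their values were seen. The stroke comparison fixed for the design was not made, since cells are tied to no sample. Alternatives tried were a stricter filter, doublets kept, resolution 2, equal weights for cells, thinning to 1000 UMIs, and each library left out.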

Additional observations from a re-analysis of the deposited data

Results flagged for a closer look

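A signal for Tnfsf13 lay outside the compared classes. Unnamed cluster 1013, 130 cells led by Saa3, Prg4 and Alox15, held 165 CPM of Tnfsf13 (145 to 186) on 254 UMIs. The highest compared class, classical monocyte-like cells, held 105 CPM. Libraries 2 and 4, which gave most of the cells of the cluster, held 173 and 174 CPM of Tnfsf13. The same cells held 162 CPM of Tnf (143 to 184), C1qa at 2580 CPM and an early response sum of 12271 CPM. Their class was not named, and the part of these genes in the Tnfsf13 level was not tested.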

How the results depend on the processing

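No count of members turned its direction, and the counts stayed within 1.5 times of the reported ones under every setting run, except the count of members 2-fold apart between libraries, which was 1 when cells were thinned to 1000 UMIs against 9 as reported, on fewer UMIs. Members highest in an immune-like class numbered 26 to 33, those at least 4-fold higher in immune-like cells 16 to 21, those at least 4-fold higher in non-immune cells 2 to 4, and those at least 2-fold above every other class 14 to 19. The ligand ratio moved from 2.76 to 2.89 with at least 1000 UMIs and at most 10% mitochondrial UMIs, 2.91 at resolution 2, 2.69 with cells weighted equally and 2.68 after thinning. It was 2.54 with 1 round of clusters that kept the globin genes, an alternative chosen after seeing the data, and 2.57 to 3.09 with each library left out. The receptor ratio moved from 1.74 to 1.78, 1.79, 1.58 and 1.63 under the first 4 of these and was 1.69 to 1.78 with each library left out. The highest class changed for 3 of the 23 fully described members with the stricter filter (Tnfsf12, Ltb and Lta), 2 with doublets kept, 2 at resolution 2 (Tnfsf10 and Ltb), 2 with equal weights (Ltb and Fas) and 6 after thinning (Tnfrsf11a, Cd40, Tnfsf8, Tnfsf12, Ltb and Fas); the cause was not tested. With 1 round of clusters it changed for 7 (Tnfrsf25, Tnfrsf18, Tnfsf13, Tnfsf11, Ltb, Lta and Tnfsf9). That setting named no ILC2-like and no dendritic-like class, so members highest in those classes had to change. Its 198 cells with Dach2, Il1rl1 and Trdc among their leading genes stayed unnamed. Its classical monocyte-like class had 453 cells, with Retnla and H2-Ab1 among the leading genes. Names of clusters also changed under other settings, as given above for venous endothelial-like, NK cell-like and B cell-like cells. No paired analysis was possible because no cell is tied to a sample, and the block, edgeR and size factor alternatives for the stroke comparison were not run. The library count was not run with equal weights, which give no counting interval. Depth limits the rare members most: in the 118 ILC2-like cells 1 UMI is 1.68 CPM, and in plasma cell-like cells 7.50 CPM.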

Other observations

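Members that lie side by side in the genome were listed with their highest classes. There were 14 neighbouring pairs within 200 kb on GRCm38.p6, and 2 of them shared a highest class: Tnfrsf26 with Tnfrsf22 in arterial endothelial-like cells, and Tnfsf4 with Tnfsf18 in ILC2-like cells, on 5 and 2 UMIs. The pairs include Cd70, Tnfsf15 and Tnfsf4, which lie below the minimum of 30 UMIs, and the share for neighbouring genes in general was not computed. On chromosome 17, Ltb and Tnf are 3061 bases apart and Tnf and Lta 1157 bases apart. B cell-like cells held 547 CPM of Ltb, 7.11 CPM of Tnf and 9.05 CPM of Lta. Macrophage-like cells held 202 CPM of Tnf and 4.93 CPM of Ltb. On chromosome 4, Tnfrsf1b and Tnfrsf8 are 20261 bases apart and were highest in non-classical monocyte-like and B cell-like cells, and Tnfrsf4 and Tnfrsf18, 9708 bases apart, in T cell-like and ILC2-like cells.

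T cell sub-cluster 3 stood out for several members at once, beside Cd40lg, Tnfrsf4 and Tnfrsf18. It held 87.8 CPM of Tnfsf11 (60.8 to 123), 124 CPM of Fasl (91.4 to 164) and 137 CPM of Tnf (103 to 179). It also held 67.2 CPM of Lta, of which 17 of 26 UMIs were from 1 cell. The NK cell-like cluster led by Xcl1 and Tox held 472 CPM of Ltb (412 to 538) and 141 CPM of Cd27, and the cluster led by Gzma and Prf1 held 34.3 and 27.4 CPM. Both clusters held Fasl, at 201 and 292 CPM, and Tnfrsf9, at 155 and 185 CPM.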
